A study of Mus musculus with 12 samples.

Results

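The 38 genes described here belong to the p53 response and to DNA repair, and they were read in mouse bone marrow progenitors with and without the transcription factors FoxO1, FoxO3 and FoxO4. They were chosen by name, as p53 and its regulators, p53 targets, kinases of the DNA damage checkpoint, and proteins of the main repair pathways. Every probe set that the platform annotation pairs with 1 of these genes alone was used. Of the 38 genes, 36 had 74 such probe sets, among 18193 genes named on an array of 45101 probe sets. Trp53, the gene of p53 itself, and Xrcc2 had none and were not analysed here. Phlda3, a p53 target that restrains the kinase Akt, had 1 probe set, which was too dim to pass the filter on low values. Its mean normalized intensity was 2.42 in FoxO-deficient myeloid progenitors, 2.82 in wild-type myeloid progenitors, 2.03 in FoxO-deficient LSK cells and 3.30 in wild-type LSK cells. The other 35 genes were tested, among 13732 genes in all, and 18 of them had at least 2 usable probe sets.

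The protein p53 is a transcription factor that is held low by the ubiquitin ligase Mdm2 and its partner Mdm4. When DNA is damaged, the kinases Atm and Atr act through Chek2 and Chek1 to release p53, which then switches on genes of arrest, repair and cell death. Breaks and lesions in DNA are mended by separate pathways, each with its own proteins, and stem cells of the blood are known to depend on several of them. FoxO factors are restrained by insulin and growth factor signals through Akt, and Gadd45a is known as a target of both p53 and FoxO3.

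There were 12 Affymetrix mouse genome arrays, 3 in each of 4 groups: FoxO-deficient myeloid progenitors, wild-type myeloid progenitors, FoxO-deficient LSK cells and wild-type LSK cells. LSK cells are marrow cells without lineage markers that carry Sca-1 and Kit, a fraction that holds the hematopoietic stem cells, and myeloid progenitors are more restricted cells. Both deficient groups came from pooled Mx-Cre+ mice with LoxP/LoxP alleles of FoxO1, FoxO3 and FoxO4, and both wild-type groups from pooled Mx-Cre- mice with the same LoxP/LoxP alleles. In Mx-Cre mice the interferon-inducible Mx promoter drives Cre, which is not limited to blood cells, and effects of the transgene and of the deletion cannot be told apart here. RNA was amplified in triplicate. Whether each array had its own pool of mice is not given in the labels, so the p-values rest on a spread among arrays that may be no more than technical. The age of the mice and the treatment that induced Cre are not given in the sources used here.

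The median deposited intensity per array lay between 8 and 13.5. Foxo4 read 58.5, 58.7 and 60.7 in FoxO-deficient myeloid progenitors, against 349, 309 and 331 in wild-type myeloid progenitors. In FoxO-deficient LSK cells it read 66.6, 93.2 and 99.6, against 347, 366 and 478 in wild-type LSK cells. Foxo1 averaged 11.9 in FoxO-deficient and 22.9 in wild-type myeloid progenitors, and 26.6 in FoxO-deficient and 104 in wild-type LSK cells, neither difference being called. In LSK cells the log2 change was -1.94, but -1.27 without the second wild-type array, with a mean of 64.8 on the other 2. Another Foxo1 probe set read 9.79, 4.775 and 9.61 in FoxO-deficient myeloid progenitors, against 14.2, 20.3 and 32.9 in wild-type ones. In FoxO-deficient LSK cells it read 35.8, 26.3 and 30.9, against 63.5, 91.1 and 66.65 in wild-type LSK cells. A dimmer one was instead higher in FoxO-deficient LSK cells, at 12.8, 13.35 and 12.5, against 8.89, 7.33 and 8.45 in wild-type LSK cells. Foxo3 was not lower in the deficient groups, at 2413 against 1860 in myeloid progenitors and 2828 against 2420 in LSK cells. The sources used here do not say whether its probes lie in the deleted part. Of the markers fitted for each cell type, 10 of 11 for LSK cells were lower and 10 of 12 for myeloid progenitors were higher in wild-type myeloid progenitors than in wild-type LSK cells. One library, the second array of the wild-type LSK cells (array 2 below), differed from the rest: its ratio of 3′ to 5′ Gapdh signal, a sign of RNA integrity, was 344, against 1.77 to 2.37 on the other arrays. It lay outside the range of the other 5 LSK arrays for 34 of the 35 genes (97.1%; 70.3% of all genes), above them for 20 and below them for 14. Many of the results that moved without this array are given both ways.

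**Figure D1:**
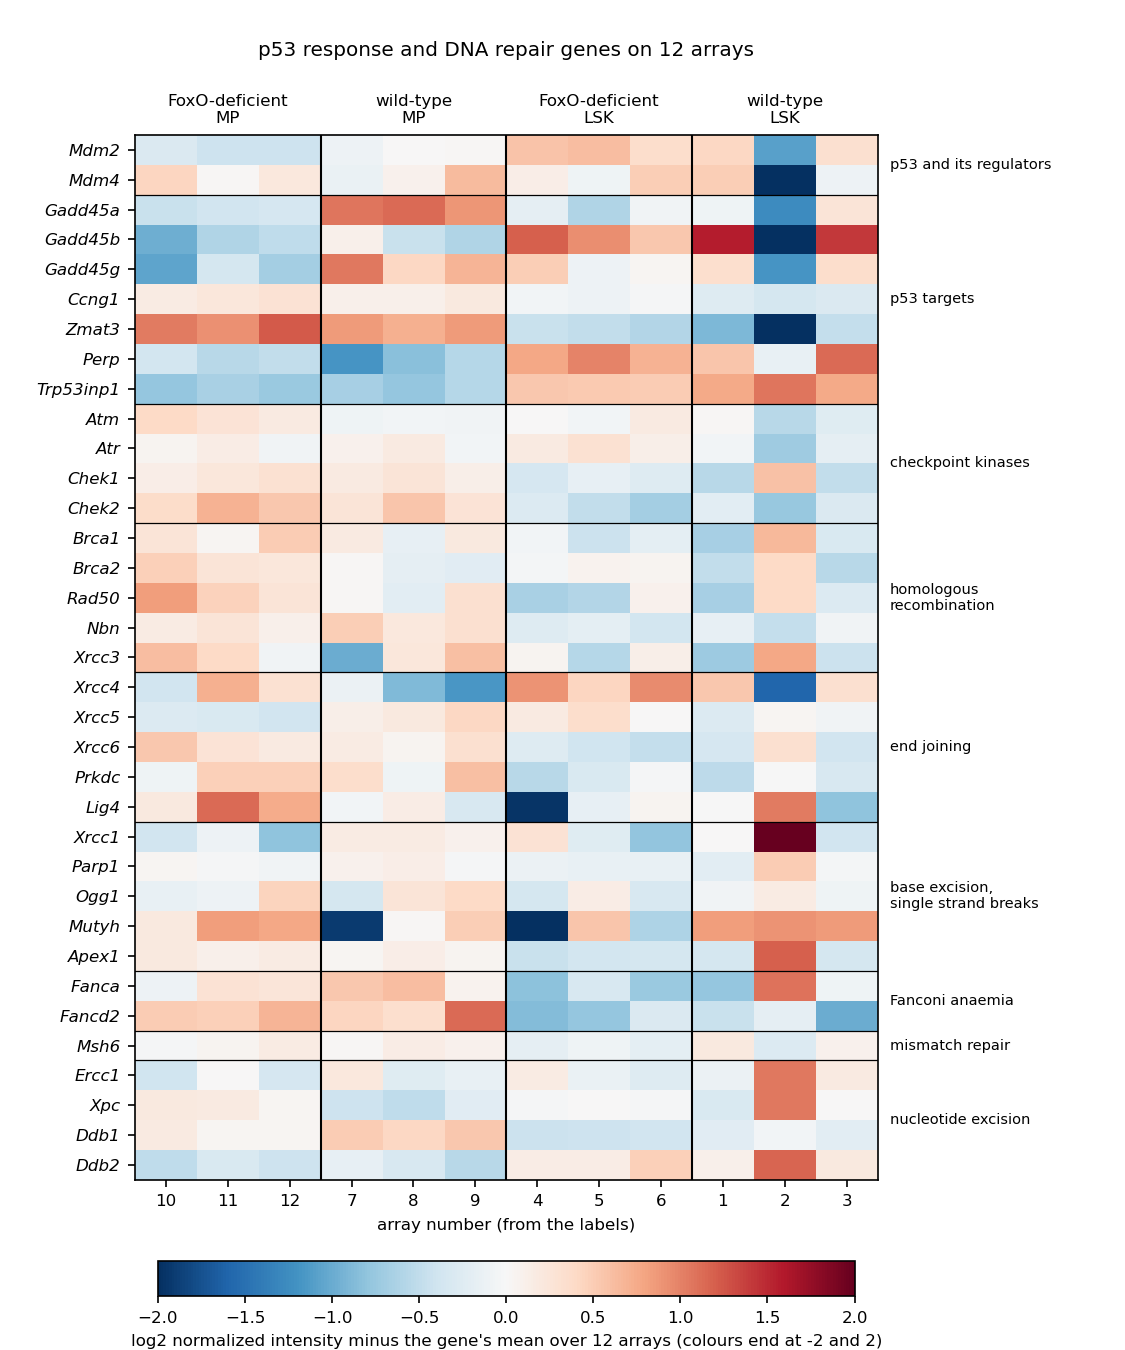
Each row is 1 gene and each column 1 array, with colour showing the log2 normalized intensity minus the gene's mean over the 12 arrays, from blue (lower) to red (higher). The column of wild-type LSK array 2 differs from its 2 neighbours in most rows, and the Zmat3, Perp and Trp53inp1 rows separate myeloid progenitors from LSK cells.

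Loss of FoxO left the 35 genes without a called change in either cell type when all arrays were used. Calls rest on a limma fit over all 12 arrays and need a Benjamini-Hochberg adjusted p, taken over the 13732 genes, of less than 0.05. In myeloid progenitors, 0 of the 35 genes were called between FoxO-deficient and wild-type cells (1.84% of all genes), and 4 had an unadjusted p under 0.05 (12.9% of all genes). The lowest adjusted p was 0.0760. The median log2 change was 0.00, against 0.04 over all genes, and for 20 genes the 95% interval lay within 2-fold in both directions. All 3 deficient arrays lay above all 3 wild-type arrays for Zmat3, Perp, Atm, Brca2, Lig4 and Xpc, and below them for Mdm2, Gadd45a, Gadd45g, Xrcc5, Xrcc1 and Ddb1. These are 12 of 35 genes, against 30.8% of all genes (18.2% above and 12.6% below). Without array 2, which enters this comparison mainly through the shared estimate of the spread, 6 of the 35 genes were called (8.88% of all genes) and 9 had an unadjusted p under 0.05 (24.1%). Brca2 and Xpc were then higher, and Gadd45a, Gadd45g, Xrcc5 and Ddb1 lower, in FoxO-deficient myeloid progenitors. In bulk RNA, fewer cells that express a gene and less RNA per cell cannot be told apart.

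In LSK cells, 0 of the 35 genes were called between FoxO-deficient and wild-type cells (0.269% of all genes), and 3 had an unadjusted p under 0.05 (11.5% of all genes). The lowest adjusted p was 0.351. The median log2 change was -0.10, against -0.04 over all genes, and for 22 genes the 95% interval lay within 2-fold in both directions. The groups did not overlap for 5 of 35 genes (16.8% of all genes), with Ccng1 and Atr higher (7.77%) and Trp53inp1, Mutyh and Ddb1 lower (9.06%) in the deficient cells. Without array 2, 0 genes were called (0.989% of all genes), 8 had an unadjusted p under 0.05 (15.5%) and the lowest adjusted p was 0.0689, for Brca2. The median was then -0.01, as over all genes, and 13 of the 35 changes had the opposite sign.

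**Figure D2:**
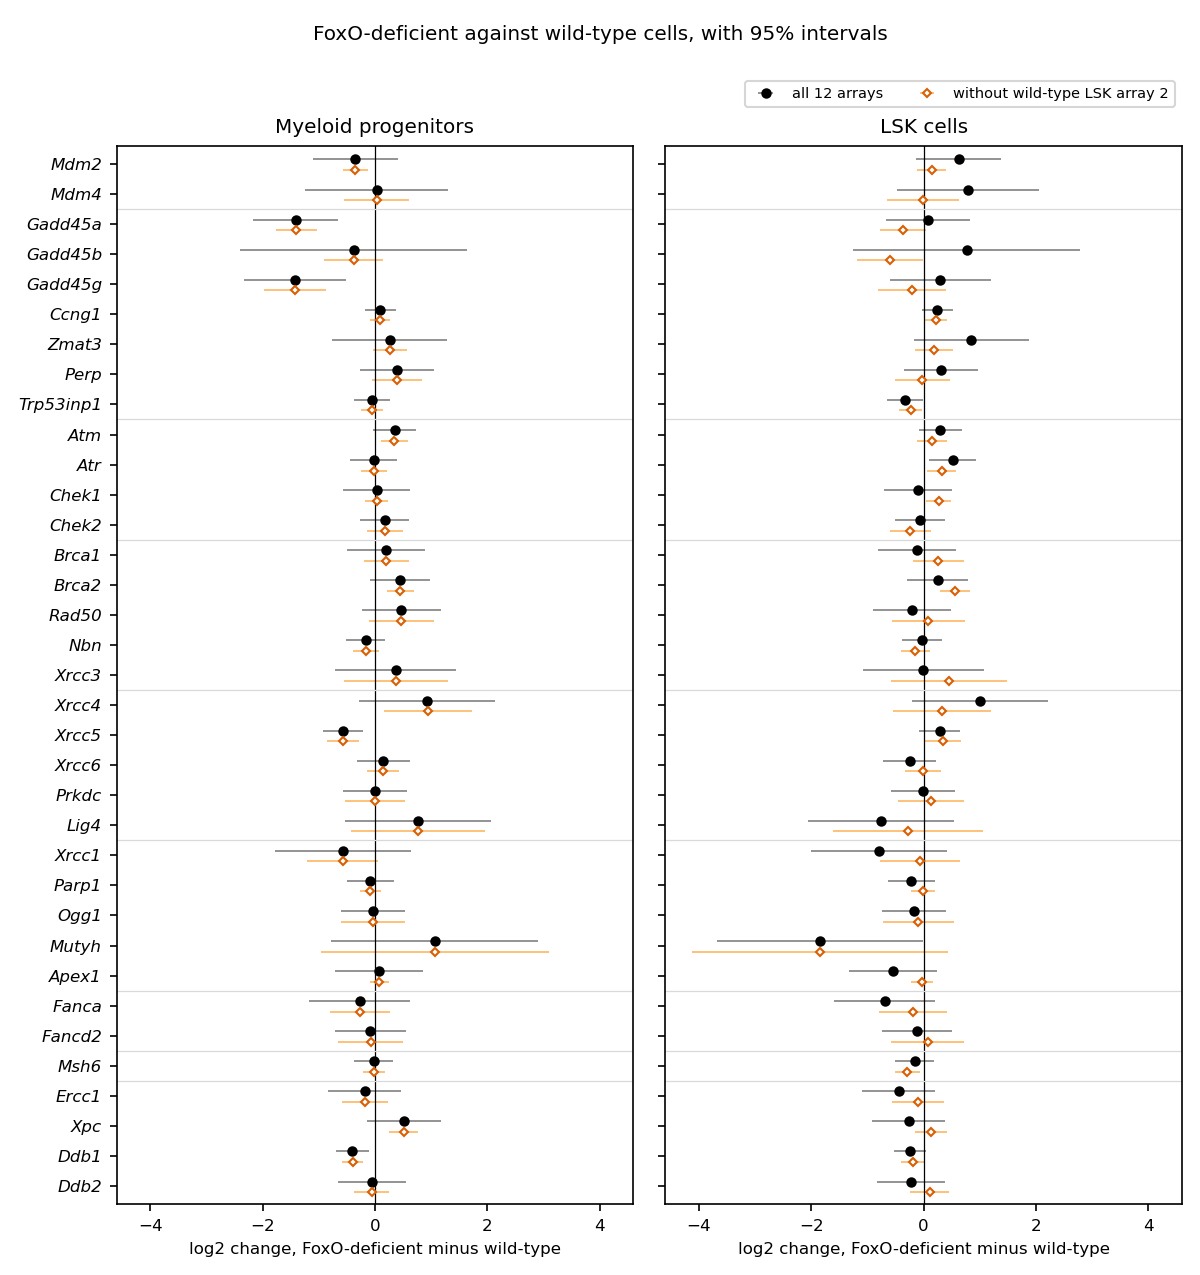
Points are log2 changes, FoxO-deficient minus wild-type, with 95% intervals from the limma fit, in myeloid progenitors (left) and LSK cells (right), for all 12 arrays (filled) and without wild-type LSK array 2 (open). In myeloid progenitors both estimates nearly coincide and most open intervals are narrower. Gadd45a, Gadd45g, Xrcc5 and Ddb1 lie wholly below 0 in both fits, and without array 2 Mdm2 also lies wholly below 0 and Atm, Brca2, Xrcc4 and Xpc wholly above it, while in LSK cells many estimates move.

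Of the regulators of p53, Mdm2, the ligase that marks p53 for degradation and is itself a p53 target, read 624, 572 and 569.8 in FoxO-deficient myeloid progenitors, against 706, 767 and 777 in wild-type myeloid progenitors. The groups did not overlap, but the difference of -0.35 ± 0.34 (SE) did not pass the test (adjusted p = 0.798; 0.0707 without array 2). A second probe set of Mdm2 averaged 29.5 in FoxO-deficient and 54.4 in wild-type myeloid progenitors. In LSK cells Mdm2 averaged 1087 in FoxO-deficient and 703 in wild-type cells, or 983 in wild-type cells without array 2, so the size of this difference depended on that array. Mdm4, which blocks the activity of p53, averaged 290.4 in FoxO-deficient and 284 in wild-type myeloid progenitors (log2 change 0.03 ± 0.57). In LSK cells it averaged 282 in FoxO-deficient cells and 283 on wild-type arrays 1 and 3, with 53.8 on array 2.

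The 3 Gadd45 genes encode small stress proteins that act on the cell cycle, on repair and on MAP kinase signalling, and Gadd45a and Gadd45g had the largest differences of the list between FoxO-deficient and wild-type myeloid progenitors. The 250 bases before their annotated starts are shown because Gadd45a and Gadd45g were the genes with a change over 1 on the log2 scale and no overlap in that cell type. Those of Mdm2 and Brca2 are added as the promoters of the list that hold the FoxO core. The sequences are from RefSeq on build GRCm38.p6, written 5′ to 3′ on the gene's own strand, with capitals marking any match to the motifs named below. Gadd45a lies on the minus strand (chr6:67037408-67037657), Gadd45b on the plus strand (chr10:80929841-80930090) and Gadd45g on the plus strand (chr13:51846425-51846674). Mdm2 lies on the minus strand (chr10:117710759-117711008) and Brca2 on the plus strand (chr5:150522371-150522620).
Gadd45a: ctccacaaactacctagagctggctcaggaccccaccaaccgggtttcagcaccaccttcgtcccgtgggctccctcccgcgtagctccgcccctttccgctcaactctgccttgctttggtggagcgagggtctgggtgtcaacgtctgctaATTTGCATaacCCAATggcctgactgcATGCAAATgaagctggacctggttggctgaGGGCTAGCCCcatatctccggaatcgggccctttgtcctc
Gadd45b: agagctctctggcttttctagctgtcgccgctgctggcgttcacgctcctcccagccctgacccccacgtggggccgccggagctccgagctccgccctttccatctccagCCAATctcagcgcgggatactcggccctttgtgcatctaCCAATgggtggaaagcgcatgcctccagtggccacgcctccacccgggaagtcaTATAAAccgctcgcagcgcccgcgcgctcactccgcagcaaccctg
Gadd45g: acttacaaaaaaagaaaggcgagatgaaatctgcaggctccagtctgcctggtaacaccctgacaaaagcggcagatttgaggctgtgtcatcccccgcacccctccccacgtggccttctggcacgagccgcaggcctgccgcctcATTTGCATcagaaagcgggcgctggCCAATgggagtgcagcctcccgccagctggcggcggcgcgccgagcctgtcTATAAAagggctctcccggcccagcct
Mdm2: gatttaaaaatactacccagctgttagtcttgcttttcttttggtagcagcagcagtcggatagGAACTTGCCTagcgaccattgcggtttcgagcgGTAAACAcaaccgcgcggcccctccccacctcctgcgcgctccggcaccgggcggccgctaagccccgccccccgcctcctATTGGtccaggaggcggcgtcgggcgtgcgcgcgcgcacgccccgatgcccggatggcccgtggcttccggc
Brca2: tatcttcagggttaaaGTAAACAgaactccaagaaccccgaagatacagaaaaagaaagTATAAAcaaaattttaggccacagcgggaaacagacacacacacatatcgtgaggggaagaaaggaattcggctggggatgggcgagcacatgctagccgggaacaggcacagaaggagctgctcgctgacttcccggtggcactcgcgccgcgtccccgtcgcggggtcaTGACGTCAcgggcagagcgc

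A promoter was found for 28 of the 38 genes, and both strands were searched over 32851 windows of 250 bases. The FoxO core GTAAACA was in 3.17% of all windows and, of the 28 genes, in those of Mdm2 and Brca2, where it stands 153 to 147 and 234 to 228 bases before the start. None of the 3 Gadd45 windows held these letters. The octamer ATGCAAAT, in 1.6% of all windows, was in those of Gadd45a and Gadd45g, and Gadd45a held it in both orientations. The p53 half-site, in 7.13% of all windows, was in those of Gadd45a, Mdm2, Ccng1, Fanca and Trp53, and in Gadd45a it stands 40 to 31 bases before the start. The CCAAT box was in 33.8% of all windows and in 17 of the 28, and the TATA box TATAAA in 12.4% and in 4 of the 28, Gadd45b, Gadd45g, Brca2 and Trp53. The AP-1 motif TGANTCA was in 6.75% of all windows and in Mdm4, and the CRE TGACGTCA in 1.55% and in Brca2. The E2F motifs TTTCGCGC and TTTGGCGC, in 0.256% and 0.417% of all windows, and the serum response element, in 1.47%, were in none of the 28. These are matches of letters and not measured binding sites.

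Gadd45a, which inhibits the mitotic kinase Cdk1 and takes part in excision repair, read 189.9, 199 and 206 in FoxO-deficient myeloid progenitors, against 544, 569 and 479.5 in wild-type myeloid progenitors. Every wild-type array lay above every deficient array, and the deficient myeloid progenitors lay within the range of the LSK arrays. The log2 change was -1.41 ± 0.34, which missed the threshold (adjusted p = 0.0760) and passed it without array 2 (-1.41 ± 0.16, adjusted p = 0.00170). Fitted on the 6 myeloid progenitor arrays alone, it passed as well (adjusted p = 0.00374). In LSK cells Gadd45a read 228, 169.7 and 246 in FoxO-deficient cells, against 243, 108 and 311 in wild-type cells, with 108 on array 2. Those groups overlapped (log2 change 0.08 ± 0.34; -0.37 without array 2). The FoxO effect in myeloid progenitors minus that in LSK cells was -1.49 ± 0.48 and did not pass the test (adjusted p = 0.258; -1.03 and 0.0579 without array 2).

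Gadd45g, the family member often induced by cytokines during differentiation, read 18.1, 29.8 and 23.6 in FoxO-deficient myeloid progenitors, against 80.6, 51.1 and 61.9 in wild-type myeloid progenitors. The groups did not overlap, and the log2 change was -1.42 ± 0.41 (adjusted p = 0.139; -1.42 ± 0.24 and 0.00930 without array 2). In FoxO-deficient LSK cells it read 54.2, 35.5 and 39.2, against 48.6, 16.6 and 49.1 in wild-type LSK cells, where array 2 gave 16.6. The difference of the FoxO effects was -1.72 ± 0.57 (adjusted p = 0.285; -1.22 and 0.117 without array 2).

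Gadd45b, a member induced by stress and by NF-kB, had 3 usable probe sets that differed. The brightest read 180.2, 232 and 248 in FoxO-deficient myeloid progenitors, against 381, 259 and 232 in wild-type myeloid progenitors, with overlap (log2 change -0.38 ± 0.91, adjusted p = 0.945). In wild-type LSK cells it read 1052, 57.2 and 942, with 57.2 on array 2. Between FoxO-deficient and wild-type LSK cells it differed by 0.76 ± 0.91, and by -0.60 ± 0.26 without array 2 (limma, adjusted p = 0.734 and 0.315). A dimmer probe set read 43.7, 47.8 and 34.5 in FoxO-deficient myeloid progenitors, against 83.8, 90.6 and 104 in wild-type myeloid progenitors. It was lower by -1.14 with an adjusted p of 0.0156 when each of the 25705 usable probe sets was tested on its own, and 0.00387 without array 2. The remaining one differed by -0.88 (adjusted p = 0.0642; 0.0202 without array 2). In LSK cells these 2 dimmer probe sets differed by -0.02 and 0.40 between FoxO-deficient and wild-type cells, and neither was called. The FoxO effect in myeloid progenitors minus that in LSK cells was -1.12 and -1.28 for them (adjusted p = 0.117 and 0.0892), and both were called without array 2 (adjusted p = 0.0323 and 0.0390).

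**Figure D3:**
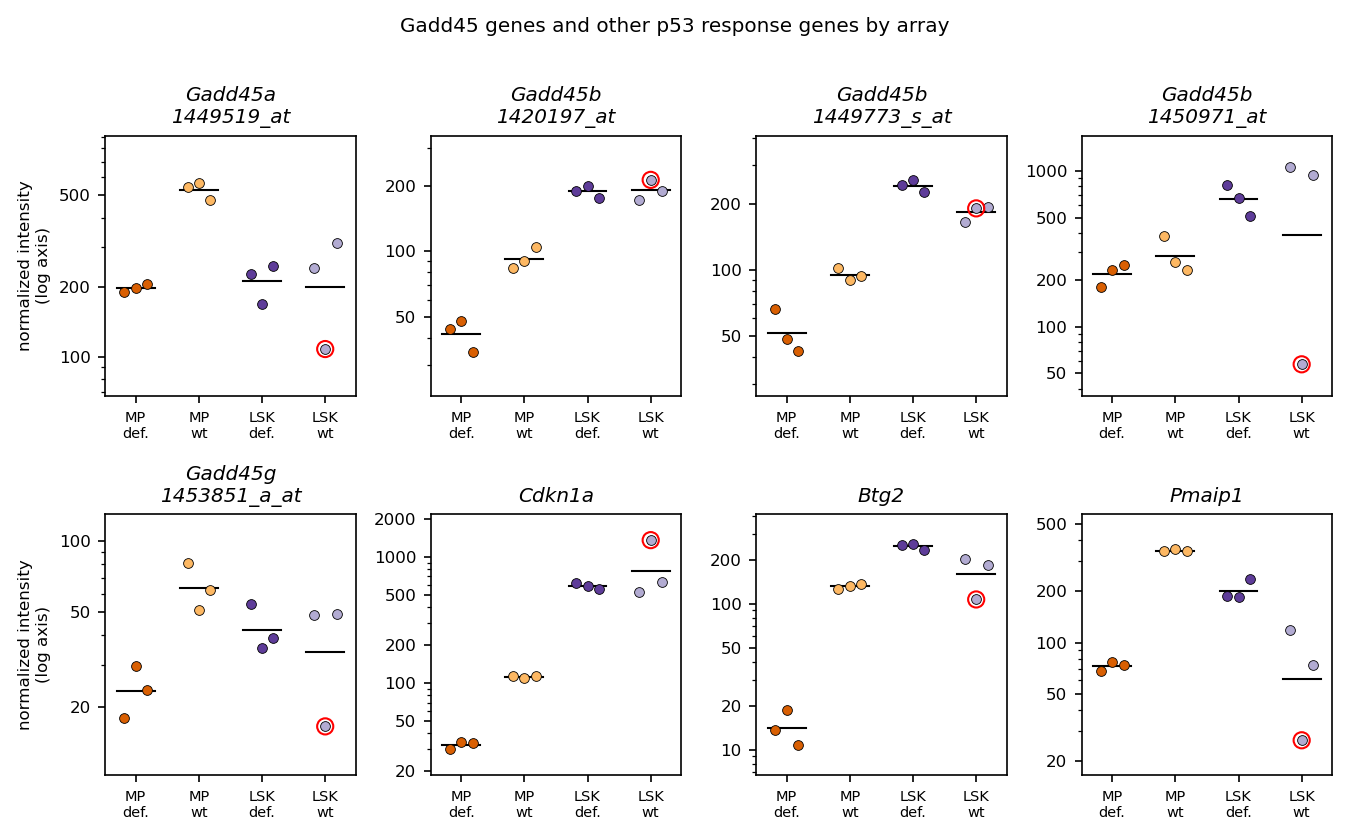
Normalized intensity (log axis) on each array of the Gadd45 probe sets and of Cdkn1a, Btg2 and Pmaip1, in FoxO-deficient and wild-type myeloid progenitors (MP) and then FoxO-deficient and wild-type LSK cells, with bars at the group means and wild-type LSK array 2 ringed. Gadd45a, Gadd45g, Cdkn1a, Btg2 and Pmaip1 have every FoxO-deficient myeloid progenitor array below every wild-type one.

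For the other p53 targets no FoxO difference passed the test in myeloid progenitors. Ccng1, the cyclin G1 gene, averaged 1065 in FoxO-deficient and 998 in wild-type cells, and Trp53inp1, whose product binds p53 and acts in autophagy, averaged 299.5 and 311 in the same order. Their intervals ran from -0.18 to 0.37 and from -0.37 to 0.27 on the log2 scale. Zmat3, an RNA-binding zinc finger protein, averaged 174.5 in FoxO-deficient and 145 in wild-type cells (0.26 ± 0.46). Perp, a membrane protein of desmosomes and cell death, averaged 94.6 in FoxO-deficient and 71.8 in wild-type cells (0.39 ± 0.29). Neither was called with or without array 2. In LSK cells Trp53inp1 read 720, 709 and 701 in FoxO-deficient cells, against 833, 1038 and 837 in wild-type cells, with no overlap (-0.34 ± 0.14, adjusted p = 0.416; -0.23 and 0.274 without array 2). Its dim second probe set went the other way there, at means of 20.3 in FoxO-deficient and 9.69 in wild-type LSK cells. Tested singly with limma, it was not called (1.02, adjusted p = 0.491; 0.65 and 0.612 without array 2).

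None of the 4 checkpoint kinases was called between genotypes. Atm, which answers to double-strand breaks, read 882, 813 and 764 in FoxO-deficient myeloid progenitors, against 632, 650.4 and 642 in wild-type myeloid progenitors, with no overlap (0.35 ± 0.17, adjusted p = 0.433; 0.0853 without array 2). Atr, which answers to single-stranded DNA, averaged 224 in FoxO-deficient and 227 in wild-type myeloid progenitors. In LSK cells Atr read 246, 267 and 235 in FoxO-deficient cells, against 208, 132 and 190.3 in wild-type cells, and had the lowest adjusted p of the list there (0.52 ± 0.19, adjusted p = 0.351; 0.32 and 0.223 without array 2). Chek1 averaged 396 in FoxO-deficient and 387 in wild-type myeloid progenitors, and Chek2 averaged 203 and 179.9 in the same order.

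Among the genes of homologous recombination, which copies an intact sister strand, Brca2 had the lowest adjusted p for the FoxO comparisons. Its product is needed for this kind of repair. Brca2 read 187, 161 and 158 in FoxO-deficient myeloid progenitors, against 137, 118 and 115 in wild-type myeloid progenitors. The groups did not overlap, and the log2 change of 0.45 ± 0.24 was called without array 2 but not in the main fit (adjusted p = 0.0354 and 0.503). A fit of all arrays with array weights also called it. Array 2 had a weight of 0.0593 in that fit, against 0.798 to 1.57 for the others, so it counted for little. In LSK cells Brca2 read 130.1, 141 and 140.2 in FoxO-deficient cells, against 94.9, 177 and 91.2 in wild-type cells, where array 2 gave 177. With that array the change was 0.25 ± 0.24, and without it 0.55 ± 0.12 (adjusted p = 0.676 and 0.0689). Brca1, its partner in break repair, averaged 127 in FoxO-deficient and 110.3 in wild-type myeloid progenitors (0.20 ± 0.31). Rad50 and Nbn, of the complex that first binds a break, differed by 0.47 ± 0.31 and -0.16 ± 0.16 there. Xrcc3, which also acts in this pathway, was dim, at 23.7 in FoxO-deficient and 18.2 in wild-type myeloid progenitors. Its dimmer probe set went the other way, at 4.91 and 16.6 in the same order, and was not called when tested singly.

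End joining seals breaks without a template. Xrcc5, which with Xrcc6 forms the Ku ring that grips a broken end, read 236, 229.6 and 217 in FoxO-deficient myeloid progenitors, against 308, 325 and 379 in wild-type myeloid progenitors. No array overlapped (log2 change -0.56 ± 0.16, adjusted p = 0.133; 0.0285 without array 2). In LSK cells the same gene averaged 322 in FoxO-deficient and 265 in wild-type cells, a change of 0.28 ± 0.16. The FoxO effect in myeloid progenitors minus that in LSK cells was -0.85 ± 0.23 (adjusted p = 0.163), and without array 2 it was -0.91 ± 0.19 and called (adjusted p = 0.0391). It was the only gene of the 35 called for this difference under that setting, and 0 of the 35 were called with all arrays (0.859% of all genes with all arrays, 3.51% without array 2). The number at an unadjusted p under 0.05 was 4 (10.6% of all genes), and 4 again without array 2 (17.9%). Xrcc6 averaged 192 in FoxO-deficient and 173 in wild-type myeloid progenitors, and Prkdc, the kinase that Ku recruits, averaged 92.3 and 92.0 in the same order. The ligase gene Lig4 and its partner Xrcc4 were dim, at means of 13.7 and 22.8 in FoxO-deficient myeloid progenitors, and their log2 changes there of 0.76 ± 0.58 and 0.93 ± 0.54 were not called.

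Base excision repair removes oxidised and otherwise damaged bases, and none of its 5 genes passed the test for FoxO in either cell type. Parp1, the sensor of single-strand breaks, averaged 2022 in FoxO-deficient and 2138 in wild-type myeloid progenitors, with an interval from -0.49 to 0.33. Apex1, which cuts abasic sites, averaged 1146 in FoxO-deficient and 1086 in wild-type myeloid progenitors. In LSK cells it averaged 785 in FoxO-deficient and 1149 in wild-type cells, but 804 on wild-type arrays 1 and 3, with 2349 on array 2. Ogg1, which excises oxidised guanine, averaged 25.4 in FoxO-deficient and 26.1 in wild-type myeloid progenitors. Its other usable probe set averaged 19.0 and 10.1 in the same order, a difference of 0.88 that was not called when tested singly. Xrcc1, the scaffold of single-strand break repair, read 23.9, 29.2 and 17.8 in FoxO-deficient myeloid progenitors, against 35.3, 35.4 and 33.5 in wild-type ones (-0.57 ± 0.54).

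Mutyh, which removes adenine paired with oxidised guanine, lay near background. It read 0.671, 13.4 and 5.64 in FoxO-deficient LSK cells, of which 1 array exceeded its background limit, against 16.4, 17.1 and 16.7 in wild-type LSK cells. This limit is the highest normalized value among the bacterial control probe sets of an array. The groups did not overlap, but the deficient arrays spread widely and the change of -1.85 ± 0.82 was not called (adjusted p = 0.433; 0.421 without array 2). In myeloid progenitors it read 10.3, 16.4 and 15.8 in FoxO-deficient cells, against 1.94, 9.13 and 12.8 in wild-type cells, with overlap.

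Nucleotide excision repair removes bulky lesions. Xpc, its first damage sensor, read 203, 202 and 183 in FoxO-deficient myeloid progenitors, against 134, 125 and 152 in wild-type myeloid progenitors, with no overlap (log2 change 0.51 ± 0.29, adjusted p = 0.534; 0.0286 without array 2). Ddb1, the adaptor of the ubiquitin ligase that marks ultraviolet damage, read 377, 342 and 342 in FoxO-deficient myeloid progenitors, against 474, 444 and 484 in wild-type myeloid progenitors (-0.40 ± 0.13, adjusted p = 0.197; 0.0195 without array 2). In LSK cells Ddb1 read 248, 249.8 and 256 in FoxO-deficient cells, against 286, 320.4 and 289 in wild-type cells. The deficient arrays were thus the lower ones in both cell types (-0.24 ± 0.13 in LSK cells, adjusted p = 0.501; 0.350 without array 2). Its partner Ddb2 averaged 233 in FoxO-deficient and 242 in wild-type myeloid progenitors, and the nuclease subunit Ercc1 averaged 126 and 143 in the same order. Fanca and Fancd2, of the Fanconi pathway that opens crosslinked DNA, differed by -0.27 ± 0.40 and -0.08 ± 0.28 in myeloid progenitors, and Msh6, of mismatch recognition, by -0.02 ± 0.16.

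Between myeloid progenitors and LSK cells more of the list was called than between genotypes. In FoxO-deficient cells, a comparison that holds no wild-type array, 7 of the 35 genes were called (19.6% of all genes), 5 higher in myeloid progenitors (10.2% of all genes) and 2 lower (9.39%). In wild-type cells 9 were called (21.4% of all genes), 7 higher in myeloid progenitors (9.95%) and 2 lower (11.5%). Zmat3, Chek2, Fancd2 and Ddb1 rose and Perp and Trp53inp1 fell in both genotypes, 6 of 35 genes, against 12.3% of all genes called alike in both. The median log2 change was 0.24 in deficient and 0.17 in wild-type cells, against 0.11 and 0.02 over all genes.

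An unadjusted p under 0.05 was reached by 15 genes in deficient cells (32.4% of all genes) and by 11 in wild-type cells (34%). The groups did not overlap for 25 genes in deficient cells (52.4% of all genes), 18 of them higher (30%) and 7 lower (22.4%), and for 14 in wild-type cells (35.8%), 10 higher (18.2%) and 4 lower (17.6%). Without array 2, 18 genes were called in deficient cells (38.4% of all genes; 11 higher, 7 lower) and 19 in wild-type cells (34.9%; 13 higher, 6 lower). Those at an unadjusted p under 0.05 then numbered 23 (46.9%) and 21 (44%). Fitted on the 6 arrays compared alone, 18 genes were called in deficient cells, and 1, Trp53inp1, in wild-type cells, where array 2 is then 1 of 3. The share of all genes called in those fits is not given here, so these counts are not compared with it.

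Of the p53 targets, Zmat3 had the largest rise of the called genes. It read 172, 158 and 195 in FoxO-deficient myeloid progenitors, against 60.9, 59.1 and 55.5 in FoxO-deficient LSK cells (1.57 ± 0.46, adjusted p = 0.0382). In wild-type cells it read 150.1, 137 and 149.9 in myeloid progenitors, against 44.4, 12.3 and 59.9 in LSK cells, with 12.3 on array 2 (2.16 ± 0.46, adjusted p = 0.00878; 1.49 without array 2). All myeloid progenitor arrays lay above all LSK arrays.

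Perp and Trp53inp1 ran the other way. Perp read 102, 89.1 and 93.5 in FoxO-deficient myeloid progenitors, against 225, 261 and 214 in FoxO-deficient LSK cells (-1.29 ± 0.29, adjusted p = 0.0125). The wild-type values were 57.8, 73.2 and 87.7 in myeloid progenitors, against 193, 118 and 288 in LSK cells (-1.38 ± 0.29, adjusted p = 0.00901). Every LSK array was above every myeloid progenitor array, and the same held for Trp53inp1. Trp53inp1 read 289, 316 and 294 in FoxO-deficient myeloid progenitors, against 720, 709 and 701 in FoxO-deficient LSK cells (-1.24 ± 0.14, adjusted p = 0.000271). In wild-type cells it read 312, 289.7 and 331 in myeloid progenitors, against 833, 1038 and 837 in LSK cells, and had the smallest p of the list (-1.53 ± 0.14, adjusted p = 8.85e-05). A second, dim probe set of Trp53inp1, with means between 9.69 and 20.3 in the 4 groups, differed by -0.58 in deficient and 0.03 in wild-type cells and was called in neither. With the mean of both probe sets the wild-type call was lost (adjusted p = 0.0682).

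Gadd45a was called between cell types in wild-type cells alone. With the array values above, it differed by -0.10 ± 0.34 between FoxO-deficient myeloid progenitors and FoxO-deficient LSK cells (adjusted p = 0.880). In wild-type cells it was higher in myeloid progenitors by 1.39 ± 0.34 (adjusted p = 0.0166; 0.94 and 0.00422 without array 2). The test of that difference between genotypes is the one given above, which did not pass. Gadd45b was not called on its brightest probe set with all arrays, at -1.58 ± 0.91 in deficient and -0.44 ± 0.91 in wild-type cells, and was called without array 2 at -1.57 and -1.79. Its other probe sets were lower in myeloid progenitors in both genotypes, by -2.16 and -2.22 in deficient cells and by -1.04 and -0.94 in wild-type cells, all called when probe sets were tested singly. Gadd45g differed by -0.84 between FoxO-deficient myeloid progenitors and FoxO-deficient LSK cells (adjusted p = 0.187 with all arrays and 0.0236 without array 2). That difference was also called with array weights, where array 2 counted for little, and on only the groups compared. Its wild-type difference was 0.88 ± 0.41 (adjusted p = 0.158).

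Ccng1 read 1020, 1066 and 1111 in FoxO-deficient myeloid progenitors, against 874, 852 and 900.4 in FoxO-deficient LSK cells (0.28 ± 0.12, adjusted p = 0.147; 0.0195 without array 2). In wild-type cells it read 972, 978 and 1046 in myeloid progenitors, against 761, 713 and 745 in LSK cells (0.43 ± 0.12, adjusted p = 0.0343). On this probe set, the brightest, the wild-type call was narrow and was lost when any of 10 arrays was left out, at adjusted p up to 0.110. The difference between genotypes did not pass the test (-0.15 ± 0.18, adjusted p = 0.823). A dimmer probe set of Ccng1 was higher in myeloid progenitors by 1.52 in deficient and 1.51 in wild-type cells. Both were called when tested singly with all arrays (adjusted p = 0.0154 and 0.0161). Another was higher by 1.17 and 0.72 in the same order, and only the deficient difference was called (adjusted p = 0.00949 and 0.0733). Mdm2, with the values above, differed by -0.89 ± 0.34 in deficient cells (adjusted p = 0.0994; 0.000256 without array 2), and its second probe set was lower in FoxO-deficient myeloid progenitors by -0.98 when tested singly (adjusted p = 0.0246). In wild-type cells Mdm2 differed by 0.09 ± 0.34, and by -0.39 without array 2 (adjusted p = 0.880 and 0.0269).

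**Figure D4:**
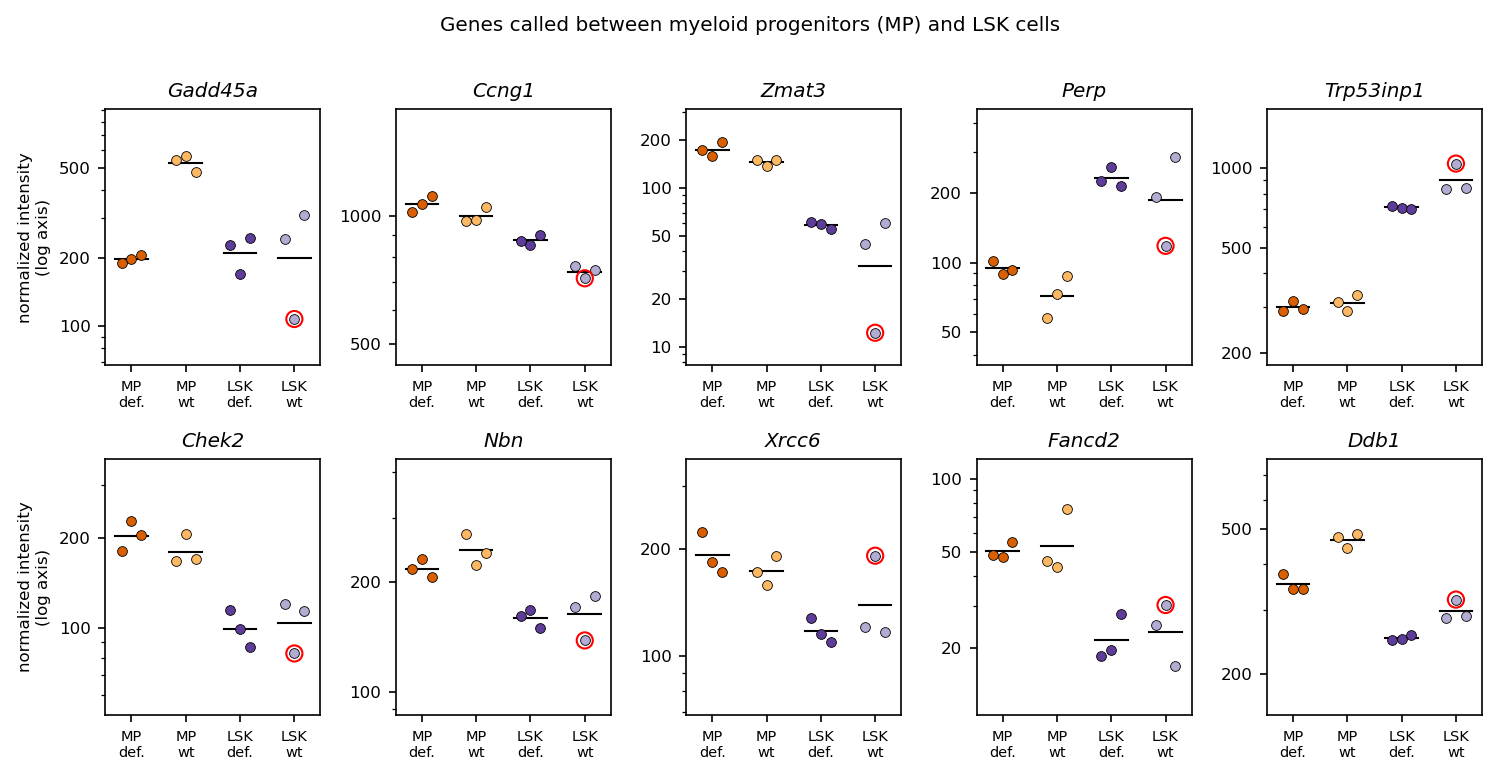
Normalized intensity (log axis) on each array for the genes called between myeloid progenitors (MP) and LSK cells in at least 1 genotype, with bars at the group means and wild-type LSK array 2 ringed. Perp and Trp53inp1 lie lower and the other genes higher in myeloid progenitors, except Gadd45a, whose FoxO-deficient myeloid progenitors lie at the level of LSK cells.

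Of the kinases, Chek2 read 181, 228 and 204 in FoxO-deficient myeloid progenitors, against 115, 99.3 and 86.8 in FoxO-deficient LSK cells (1.02 ± 0.20, adjusted p = 0.00531). The wild-type values were 167, 205 and 169.8 in myeloid progenitors, against 121, 82.6 and 115 in LSK cells (0.78 ± 0.20, adjusted p = 0.0198). Neither pair of groups overlapped. On its brightest probe set Chek1 was called without array 2 but not in the main fit. Array 2 read 508 there beside 230.2 and 242 on wild-type LSK arrays 1 and 3. Without it Chek1 was higher in myeloid progenitors by 0.47 in deficient and 0.71 in wild-type cells (adjusted p = 0.00328 and 0.000866). A dimmer probe set was higher by 0.73 in deficient and 0.81 in wild-type cells, and another by 1.24 and 0.89. All of these were called when tested singly with all arrays. A further probe set, at 0.63 and 0.69 in the same order, was called in neither genotype.

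Of the repair genes, Fancd2, whose ubiquitination marks crosslinked DNA, read 48.9, 47.6 and 54.9 in FoxO-deficient myeloid progenitors, against 18.6, 19.7 and 27.7 in FoxO-deficient LSK cells (1.20 ± 0.28, adjusted p = 0.0141). The wild-type values were 46.0, 43.3 and 75.7 in myeloid progenitors, against 25.1, 30.2 and 17.0 in LSK cells (1.16 ± 0.28, adjusted p = 0.0157). Myeloid progenitors lay above LSK cells on every array. Its other usable probe sets differed by 0.83 and 1.26 in deficient and 2.04 and 1.09 in wild-type cells, and of these 4 values 2.04 was called when tested singly. Ddb1, with the array values above, was higher in myeloid progenitors by 0.49 ± 0.13 in deficient and 0.65 ± 0.13 in wild-type cells (adjusted p = 0.0247 and 0.00625). Its partner Ddb2 averaged 233 in FoxO-deficient myeloid progenitors, against 368.5 in FoxO-deficient LSK cells, and 242 in wild-type myeloid progenitors, against 432 in wild-type LSK cells. In both genotypes it was called lower without array 2 (adjusted p = 0.00568 and 0.0363) but not in the main fit. A fit with array weights, in which array 2 counted for little, also called it lower in both.

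Xrcc6 was called in deficient cells and Nbn in wild-type cells. Xrcc6 read 223, 184 and 173 in FoxO-deficient myeloid progenitors, against 128, 116 and 109.6 in FoxO-deficient LSK cells (0.71 ± 0.21, adjusted p = 0.0417). Wild-type myeloid progenitors averaged 173 and wild-type LSK cells 139, with array 2 at 191 beside 121 and 117 (0.31 ± 0.21, adjusted p = 0.335; 0.0164 without array 2). A dim second probe set of Xrcc6 differed by 0.13 in deficient and -0.57 in wild-type cells, and with the mean of both the deficient call was lost (adjusted p = 0.507). Nbn averaged 218 in FoxO-deficient myeloid progenitors and 159.6 in FoxO-deficient LSK cells (0.45 ± 0.16, adjusted p = 0.0753; 0.00843 without array 2). In wild-type cells it read 271, 223 and 241 in myeloid progenitors, against 171, 138 and 183 in LSK cells (0.58 ± 0.16, adjusted p = 0.0260). The test of the difference between genotypes was passed by neither gene, at 0.39 ± 0.30 for Xrcc6 and -0.13 ± 0.22 for Nbn (adjusted p = 0.718 and 0.872).

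Among 104 tested genes of the same pathways outside the list, 117 having been listed, 3 were called between FoxO-deficient and wild-type myeloid progenitors, all of them p53 response genes and all lower (1.09% of all genes were called lower and 0.757% higher). Cdkn1a, the cyclin-dependent kinase inhibitor p21, read 29.8, 34.3 and 33.5 in FoxO-deficient myeloid progenitors, against 114, 109 and 115 in wild-type myeloid progenitors (-1.77 ± 0.30, adjusted p = 0.0157). Btg2, an antiproliferative gene, read 13.7, 18.8 and 10.8 in FoxO-deficient myeloid progenitors, against 126, 132 and 137 in wild-type myeloid progenitors (-3.17 ± 0.26, adjusted p = 0.000174). Pmaip1, which encodes the cell death protein Noxa, read 67.6, 76.9 and 73.5 in FoxO-deficient myeloid progenitors, against 343, 354 and 344 in wild-type myeloid progenitors (-2.25 ± 0.43, adjusted p = 0.0296). In none of these genes did the groups overlap. Leaving out 1 array ended the call of Cdkn1a for each of the 6 myeloid progenitor arrays (adjusted p up to 0.0666) and that of Pmaip1 for 9 of the 12 arrays (up to 0.102), while Btg2 stayed called. In LSK cells 0 of the 104 were called, with 9 at an unadjusted p under 0.05 (0.269% and 11.5% of all genes). In myeloid progenitors 14 of them had an unadjusted p under 0.05 (12.9%). The median log2 change over the 104 genes was 0.02 in myeloid progenitors and 0.00 in LSK cells. Without array 2, when 8.88% of all genes were called in myeloid progenitors and 0.989% in LSK cells, 6 of 103 tested were called higher in FoxO-deficient myeloid progenitors (Rrm2b, Apaf1, Tigar, Rnf168, Fancb and Fancf) and 5 lower (the 3 above with Plk2 and Cdkn1b), and Pmaip1 and Trp53bp1 were called higher in FoxO-deficient LSK cells.

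The cell type comparisons called more of these 104 genes: 20 were higher and 6 lower in FoxO-deficient myeloid progenitors than in FoxO-deficient LSK cells, and 18 were higher and 3 lower in the wild-type cells. Of all genes, 10.2% were called higher and 9.39% lower in the deficient cells, and 9.95% and 11.5% in the wild-type cells. Without array 2, 40 of 103 tested were called higher and 12 lower in the deficient cells, and 28 higher and 7 lower in the wild-type cells. Of all genes, 38.4% and 34.9% were then called in either direction. The p53 response genes called with all arrays went both ways. Cdkn1a fell to 32.5 in FoxO-deficient myeloid progenitors, against 589.8 in FoxO-deficient LSK cells (-4.16 ± 0.30), and to 112 in wild-type myeloid progenitors, against 767 in wild-type LSK cells (-2.76 ± 0.30). Plk2, a kinase induced by p53, exceeded the background limit on no FoxO-deficient myeloid progenitor array and was at least 19.3-fold lower there than in FoxO-deficient LSK cells, which averaged 178.5. Aen, a p53-induced nuclease, rose to 1598 in FoxO-deficient myeloid progenitors, against 740.4 in FoxO-deficient LSK cells, and to 1404 in wild-type myeloid progenitors, against 598 in wild-type LSK cells.

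With all arrays, the recombination genes that were called were all higher in myeloid progenitors, 8 of 23 in each genotype. Of all genes, 10.2% were called higher in deficient and 9.95% in wild-type cells. Without array 2, 12 of the 23 were called higher and 1 lower in deficient cells, and 10 higher in wild-type cells. Of all 13445 genes tested without it, 2995 were called higher and 2165 lower in deficient cells, and 2470 higher in wild-type cells. The genes called in both genotypes with all arrays included Blm, the Bloom helicase (1.61 ± 0.21 in deficient and 1.71 ± 0.21 in wild-type cells) and Rad54l, a motor protein that acts on DNA (1.27 ± 0.15 and 1.02 ± 0.15). The nuclease gene Exo1 was higher by 1.90 ± 0.32 in deficient and 1.15 ± 0.32 in wild-type cells. Hus1, of the checkpoint clamp, was higher by 1.18 ± 0.16 in deficient and 1.01 ± 0.16 in wild-type cells, and Cdc25a, the phosphatase that Chek1 restrains, by 1.15 ± 0.19 and 1.65 ± 0.19. Of 11 other Fanconi genes, 5 were called in deficient cells, all higher, among them Fancb at 1.48 ± 0.32 and Fancc at 1.51 ± 0.42. In wild-type cells 0 were called, with 2 at an unadjusted p under 0.05 (34% of all genes). Without array 2, 7 were called in deficient and 5 in wild-type cells, all higher (38.4% and 34.9% of all genes were called). With all arrays, the others called in deficient cells included Tigar, Palb2, Rpa2, H2ax, Rnf168, Smug1, Fen1, Ercc8, Fancm, Ube2t and Usp1, all higher, and Bbc3, Pmaip1, Btg2 and Epha2, all lower. In wild-type cells they included Pmaip1, Mre11a, Rpa2, Wrn, Ercc8, Rad23b, Gtf2h1, Rad1, Cdc25c and Rad18, all higher, and Sesn1 and Rrm2b, both lower.

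Other gene groups moved with these comparisons, and their part in the results was not tested. Of 20 immediate-early and dissociation genes, among them Btg2, 18 were called lower in FoxO-deficient than in wild-type myeloid progenitors, with a median log2 change of -3.66. Their summed intensity was 1599 to 1653 in FoxO-deficient myeloid progenitors, against 17830 to 18500 in wild-type myeloid progenitors, and 30280 to 31310 in FoxO-deficient LSK cells, against 28820 to 29530 in wild-type LSK cells. Fosb, Egr3, Atf3 and Nr4a1 exceeded the background limit on no FoxO-deficient and on all 3 wild-type myeloid progenitor arrays. Of 17 S phase genes, 16 had a positive log2 difference between myeloid progenitors and LSK cells in each genotype and 5 were called, all higher (10 in deficient and 13 in wild-type cells without array 2). Of 15 genes of mitosis, 15 were positive in deficient and 14 in wild-type cells, and 7 were called in each genotype, all higher (12 and 13 in the same order without array 2). Between genotypes the median change in myeloid progenitors was -0.05 for S phase and 0.04 for mitosis. Summed S phase intensity was 13690 to 13790 in FoxO-deficient myeloid progenitors, 14070 to 14280 in wild-type myeloid progenitors, 11040 to 11570 in FoxO-deficient LSK cells and 9986 to 14140 in wild-type LSK cells. Late neutrophil genes summed to 6291 to 6599 in FoxO-deficient and 4472 to 4606 in wild-type myeloid progenitors, and 8548 to 8779 in FoxO-deficient and 6015 to 8226 in wild-type LSK cells. Eosinophil, basophil and mast cell markers numbered 9, of which 4 were called higher in FoxO-deficient and 8 in wild-type myeloid progenitors than in LSK cells of the same genotype. Between FoxO-deficient and wild-type LSK cells all 9 had a positive log2 change, with a median of 2.06, 7 had an unadjusted p under 0.05 and 2 were called higher (6 without array 2). In myeloid progenitors 8 of the 9 were positive, with a median of 0.53, and 0 were called by limma, with 2 at an unadjusted p under 0.05 (without array 2, 2 were called higher and 1 lower). The 5 fitted T and NK cell markers summed to 2293 to 2629 in FoxO-deficient and 1687 to 1768 in wild-type myeloid progenitors, and 868 to 1102 in FoxO-deficient and 272 to 709 in wild-type LSK cells. Nearly all of this was Nkg7, a granule protein gene, at 2403 in FoxO-deficient and 1702 in wild-type myeloid progenitors and 953 in FoxO-deficient and 492 in wild-type LSK cells. Its cell type difference was called in each genotype, and its FoxO difference in myeloid progenitors only without array 2 (adjusted p = 0.640; 0.0306 without it). Among the others, Cd3g and Klrd1 exceeded the background limit on no myeloid progenitor array of either genotype. B cell markers summed to 131 to 170.9 in FoxO-deficient and 76.2 to 106 in wild-type myeloid progenitors. In LSK cells they summed to 100 to 139 in FoxO-deficient and 60.3 to 143 in wild-type cells. Between genotypes in myeloid progenitors, 4 of the 5 fitted had a positive log2 change and 1 was called lower (1 higher and 1 lower without array 2). In myeloid progenitors Ebf1 was above the limit on no deficient array and on all 3 wild-type arrays.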

How the data were processed

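RNA of 12 samples was read on Affymetrix mouse genome arrays. The intensity of each of 45101 probe sets was deposited as a linear value per array, and the sources used here do not name the software that summarised the probes. The annotation paired 34945 probe sets with 1 gene symbol, 932 with several and 9160 with none, and gene names were updated for 34741. The 64 control probe sets were left out of the tests. Values were taken as log2(intensity + 0.6) and quantile normalized. The filter on low values asked that 3 or more arrays each place a probe set over their 40th percentile, and each gene was represented by the kept probe set of highest mean. Differences were tested with limma 3.58.1 in R 4.3.3 over all 12 arrays (8 residual degrees of freedom), with Benjamini-Hochberg adjustment at 0.05, and ± gives the standard error. The fit was checked on simulated data with known changes.

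Printed intensities are normalized values turned back from the log2 scale. The background limit of an array is the highest normalized value among its 27 bacterial control probe sets, between 4.54 and 12.4. A fold printed as at least a value sets the brighter mean against that limit. Values without array 2 come from renormalizing, filtering and fitting the other 11 arrays. No pair of arrays shared more than 1.55% of its values, and the number of arrays limits the precision. The members and gene lists were chosen with earlier results of these data known. Array values were to be given for genes called in any comparison and for those without overlap and with a FoxO change over 1 on the log2 scale, and those of other genes were added after their values were seen. Alternatives, whose effect is given at the end, changed the offset, filter, scaling, choice of probe set, arrays fitted and variance model, and left out each array in turn.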

Additional observations from a re-analysis of the deposited data

Results flagged for a closer look

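The effect of FoxO loss differed between the cell types for 2 p53 response genes outside the list of 38, by the test of the difference itself. Pmaip1 read 67.6, 76.9 and 73.5 in FoxO-deficient myeloid progenitors, against 343, 354 and 344 in wild-type myeloid progenitors. In FoxO-deficient LSK cells it read 187, 185 and 238, against 118, 26.6 and 73.3 in wild-type LSK cells. The effect in myeloid progenitors minus that in LSK cells was -3.96 ± 0.60 on the log2 scale (limma, adjusted p = 0.0162; -3.36 and 0.000343 without wild-type LSK array 2). Leaving out FoxO-deficient LSK array 6 ended this call (adjusted p = 0.0616).

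Btg2 read 13.7, 18.8 and 10.8 in FoxO-deficient myeloid progenitors, against 126, 132 and 137 in wild-type myeloid progenitors. In FoxO-deficient LSK cells it read 251, 255 and 233, against 203, 107 and 184 in wild-type LSK cells. The difference of the effects was -3.80 ± 0.37 (limma, adjusted p = 0.00104; -3.53 and 0.000269 without array 2), and Btg2 is also 1 of the 20 immediate-early genes, 16 of which were called lower for this difference. The cause was not tested.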

How the results depend on the processing

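No call of a gene of the list, and no call of another pathway gene in the FoxO comparisons or their difference, changed direction under any alternative. Where each probe set was tested, the one of lowest p stood for its gene, so a probe set of the opposite sign was not counted. The cell type calls of the other pathway genes were not followed through the alternatives. For FoxO in LSK cells, 0 of the 35 genes were called by limma under each of the 11 alternatives and with each array left out. An unadjusted p under 0.05 was reached by 3 in the main fit and by 8 without wild-type LSK array 2. For FoxO in myeloid progenitors the 0 calls became 2 with an offset of 32, 1 with the 60th percentile filter, 1 with each probe set tested, 3 on only the groups compared, 6 with array weights and 1 with an intensity trend. Leaving out 1 array gave 0 to 6, with 6 without wild-type LSK array 2 and 1, Gadd45a, without wild-type LSK array 3. For the difference between cell types the 0 calls became 1 with array weights, and leaving out 1 array gave 0 to 1. That comparison was not run on only the groups compared, since it needs all 4 groups. The share of all genes called is not set beside the counts of this section, so they show only how calls of the list moved.

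Between the wild-type cell types the 9 calls became 1 on only the groups compared, and leaving out 1 array gave 6 to 19. For the FoxO-deficient cells the 7 calls became 11 with an offset of 32, 4 with no filter, 13 with median scaling, 11 with each probe set tested, 18 on only the groups compared and 19 with array weights, and leaving out 1 array gave 3 to 18. In that comparison Zmat3 stayed called with 3 of 12 arrays left out in turn, Xrcc6 with 3, Ddb1 with 6 and Fancd2 with 9 (adjusted p up to 0.106, 0.139, 0.0947 and 0.0558). Of the wild-type calls, Chek2, Gadd45a and Fancd2 were each lost without 1 wild-type myeloid progenitor array (array 8, 8 and 9), and Nbn without array 7 or 9. Testing each probe set without wild-type LSK array 2, chosen after seeing the data, gave 6 for FoxO in myeloid progenitors, 1 for the difference, 19 for wild-type cells and 21 for deficient cells. The cause was not tested.

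No paired analysis was possible because the groups share no replicate number. With 3 arrays a group, genes near the background limit of 4.54 to 12.4, such as Mutyh, Lig4 and Phlda3, have little precision.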
